A study of Homo sapiens with 22 samples.

Results

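The genes of the MYC, MAX and MXD network were followed as possible targets of N-MYC and WDR5: MYC, MYCL, MAX, MXD1, MXD3, MXD4, MXI1, MNT, MGA and MLX. These 10 of 20149 protein-coding genes were chosen by name, and their peaks were those within 1 kb of any annotated transcription start site (TSS) of the gene (promoter peaks) or elsewhere in the gene body. Of the 10 genes, 9 had at least 1 peak in the 16 peak lists, and MYC had none.

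Chromatin immunoprecipitation with sequencing (ChIP-seq), which maps where a crosslinked protein sat on DNA, had been run for N-MYC and for WDR5 in the neuroblastoma lines CHP-134 and IMR-32, both with amplified MYCN. CHP-134 cells received DMSO or a compound for 4 h, with 3 libraries per antibody and treatment, and IMR-32 cells were untreated, with 2 libraries per antibody. DMSO is given as 0.0005% in one sample label and 0.005% in another, and the labels spell the compound in differing ways, C38b and 419C91 among them, so it is not identified here. IMR-32 replicates are numbered 1 and 2 for N-MYC and 1 and 3 for WDR5, and each library pooled 3 ChIPs from identical chromatin. Each group is a single cell line. The methods describe 3 independent runs of the ChIP experiments without saying which steps were repeated, so tests measure the spread between these libraries, part of which may be technical. CHP-134 was sequenced as single reads and IMR-32 as paired reads, so line and sequencing run cannot be told apart. The lists hold no read totals, so depth is unknown, and they carry no expression values against which the cell type could be checked.

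The number of peaks per library differed widely and limits every comparison of listed with unlisted peaks. N-MYC lists held 9125 to 15286 peaks with DMSO, 2964 to 12313 with the compound and 5242 to 8286 in IMR-32. WDR5 lists held 1671 to 4891, 15 to 5973 and 1258 to 1693 peaks. Compound replicate 2 stood apart for both antibodies, with 2964 N-MYC and 15 WDR5 peaks. A peak that is not listed was not called at the authors' q-value of 0.05, which does not show that the protein was absent.

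MYC proteins (c-MYC, N-MYC and L-MYC, the last encoded by MYCL) are basic helix-loop-helix leucine zipper factors that bind DNA as dimers with MAX, mainly at E-boxes. MXD1, MXD3, MXD4, MXI1, MNT and MGA compete for MAX and, as dimers with it, repress genes, whereas MLX is a MAX-like partner of some MXD proteins and of the glucose-responsive Mondo proteins. WDR5 is a chromatin scaffold that MYC proteins contact directly, and N-MYC is the family member on which MYCN-amplified neuroblastoma depends.

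The E-box CACGTG, which reads the same on both strands, lay within 100 bp of an N-MYC summit (the highest point of a peak) in at least 1 library at 8 of the 9 bound genes, all but MXI1. No share over all genes was computed for that rule. These stretches carry the site and are printed 5′ to 3′ along the gene from hg19 (GRCh37), with the E-box in capitals. They come from promoter sites listed in all 3 DMSO libraries of N-MYC, and the MGA site also held WDR5. E-box 2 of MGA lay 161.5 bp or more from every DMSO summit, and within 100 bp of the summit in 2 of 3 compound libraries. E-boxes overlapping an annotated UTR, at MLX, MYCL, the MXD3 gene body and one of those at MGA, are not printed.
MAX, chr14:65569554-65569609, minus strand, upstream: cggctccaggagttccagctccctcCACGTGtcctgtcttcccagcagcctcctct
MXD1, chr2:70141392-70141447, plus strand, upstream: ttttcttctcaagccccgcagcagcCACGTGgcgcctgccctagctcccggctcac
MXD3, chr5:176739252-176739307, minus strand, intron: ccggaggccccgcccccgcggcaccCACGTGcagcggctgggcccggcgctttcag
MXD4, chr4:2264044-2264099, minus strand, upstream: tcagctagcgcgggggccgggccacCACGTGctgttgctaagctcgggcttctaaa
MNT, chr17:2302998-2303053, minus strand, intron: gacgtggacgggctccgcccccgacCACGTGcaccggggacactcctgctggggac
MGA, chr15:41913910-41913965, plus strand, E-box 2 of the upstream promoter: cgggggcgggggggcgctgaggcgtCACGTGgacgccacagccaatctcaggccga
MGA, chr15:41914236-41914291, plus strand, E-box 3 of the upstream promoter: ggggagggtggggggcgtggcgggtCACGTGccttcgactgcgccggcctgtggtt
At MXD3, MXD4 and MNT the E-box had the same neighbours, C before it and C after it, read along the gene. One base on each side, read on either strand, divided the 15 E-boxes at sites of the 9 genes into 5 kinds, of which CCACGTGC was the most frequent, with 5 boxes, at MYCL, MXD3, MXD4 and MNT.

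N-MYC occupied most of the network in CHP-134 cells. With DMSO, 9 of the 10 genes had an N-MYC promoter peak in at least 2 of 3 libraries, against 39.3% of all protein-coding genes. Strength is given as the percentile of a peak's fold enrichment within its own list, where the fold is the authors' ratio of signal to local background and a percentile of 90 means that 90% of the peaks of that list were at or below it. Over the 9 genes the median of the mean percentile was 77.1, beside 55.9 over the 7924 genes with such a peak. The network genes had 3 (MYCL) to 37 (MXI1) annotated TSSs. More TSSs give more places for a promoter peak, and neither comparison was matched for their number. MXD3, MNT, MGA and MXD1 stood highest, MAX followed, MLX and MXD4 lay in the middle, and MXI1 and MYCL were lowest. Of the neighbours in this order, MXD3 lay above MNT in every DMSO library, at 97.7 or more against 96.3 or less, and all other neighbours overlapped. Ranked by −log10 q-value in place of fold, MLX had a mean percentile of 88.7 and MXI1 of 21.5.

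MYC, the gene of c-MYC, had no N-MYC or WDR5 peak at its TSSs or in its gene body in any list. The nearest N-MYC summit lay downstream, at a TSS of the long noncoding RNA gene PVT1, 58.2 to 58.5 kb from the MYC TSS in the CHP-134 lists and 58.4 kb away in IMR-32 replicate 1. In IMR-32 replicate 2 the nearest summit was 155 kb away, also at PVT1.

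MYCL, which encodes L-MYC, had the lowest mean percentile of promoter peaks among the bound genes with DMSO. Its percentile was 15.9 in DMSO replicate 1 and 42.6 in replicate 3, where MXI1 was at 34.1, and no MYCL promoter peak was listed in replicate 2. A second place, in an intron 2725 bp downstream of the nearest TSS on average, was listed in all 3 DMSO libraries, at percentiles of 52.2, 28.0 and 6.20, and held no CACGTG. MYCL, MXD3 and MGA were the 3 of 10 genes with an N-MYC peak in the gene body, beyond 1 kb of their TSSs, in at least 2 DMSO libraries, against 8.56% of all genes.

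MAX, the shared dimer partner of the network, had its N-MYC peak just upstream of the TSS, at percentiles of 90.0, 51.3 and 90.0 in DMSO replicates 1 to 3 (77.1 ± 22.4, SD, n = 3). Replicate 2 was the low one, and it is also the shortest of the 3 DMSO lists. MLX, the MAX-like partner, had a single site across the TSS, at percentiles of 80.2, 40.7 and 72.7 (64.5 ± 21.0, SD, n = 3), again lowest in replicate 2.

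Among the MXD repressors, MXD3 had the strongest and steadiest peak. Its percentiles with DMSO were 98.2, 99.1 and 97.7 (98.4 ± 0.697, SD, n = 3), with folds of 14.0, 15.3 and 13.8, and its mean exceeded that of 98.6% of genes with an N-MYC promoter peak. A further MXD3 peak, at percentiles of 85.7, 43.2 and 89.2, lay 4325 bp downstream of the nearest MXD3 TSS on average and within 1 kb of TSSs of PRELID1 and RAB24, so it cannot be given to MXD3 alone. MXD1 varied more, at 63.1, 96.3 and 99.7 (86.4 ± 20.2, SD, n = 3). Replicate 1 of MXD1 was the low one, with a −log10 q-value of 29.8 beside 38.1 and 73.2 in the others. MXD4 had percentiles of 66.8, 49.4 and 76.1 (64.1 ± 13.6, SD, n = 3). MXI1, the fourth repressor of this group, had a weak peak downstream of its TSS at 53.3, 52.6 and 34.1 (46.7 ± 10.9, SD, n = 3).

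MNT, a broadly expressed MAX-binding repressor, had N-MYC at several places, and its strongest promoter peak was at percentiles of 96.3, 91.1 and 94.2 (93.9 ± 2.64, SD, n = 3). Summits of all libraries within 300 bp of each other were joined to a site, a rule set after the data were seen, which gave 22 sites over the 9 genes, 18 at promoters and 4 in gene bodies. MNT held 6 of them. An intron site 705 bp downstream of its nearest TSS, with CACGTG, was listed in all 3 DMSO libraries at 96.3, 90.8 and 84.1. An inner promoter had a site just upstream of a TSS at 92.2, 91.1 and 94.2, without CACGTG, and another just downstream of a neighbouring TSS at 91.1, 37.3 and 75.2. The outer sites of MNT could not be resolved in CHP-134, since some peaks there were up to 3077 bp wide with a single summit.

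MGA encodes the largest protein of the network, which carries both a T-box and a basic helix-loop-helix domain. Its N-MYC peaks lay at an upstream promoter, at a second promoter inside the gene and in the intron after that. In DMSO replicates 1 to 3 the upstream promoter was at 72.4, 92.6 and 91.2, the second at 96.5, 45.1 and 50.8, and the intron at 6.56, 49.3 and 66.1. The stronger promoter thus differed between libraries, the inner in replicate 1 and the upstream in replicates 2 and 3, and the strongest peak gave 96.5, 92.6 and 91.2 (93.4 ± 2.77, SD, n = 3). The TSSs at the upstream promoter belong to transcripts outside GENCODE's basic set, and a TSS of the noncoding gene ENSG00000260926 lies within 1 kb of the site.

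**Figure D1:**
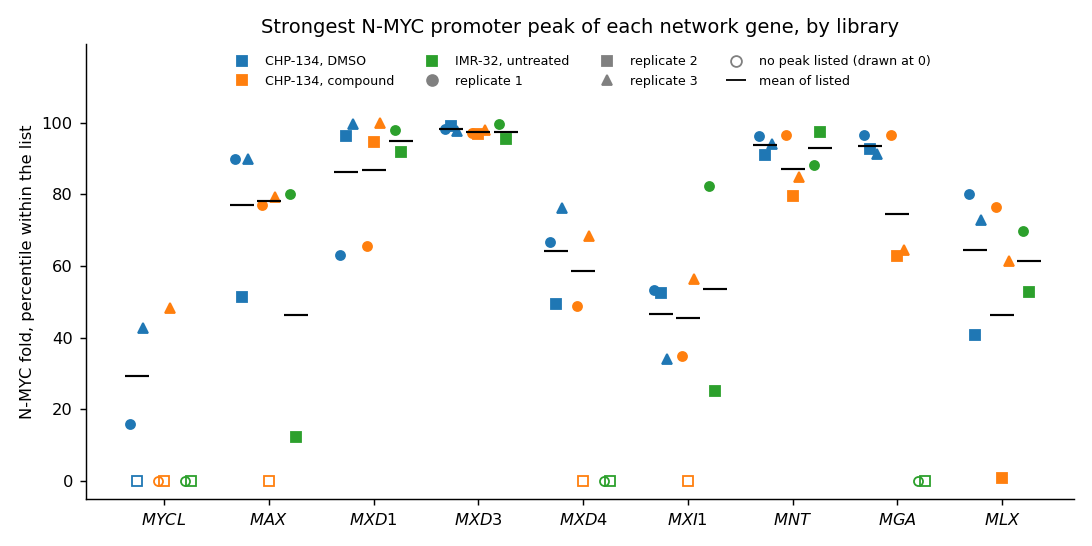
Percentile of the N-MYC fold of the strongest promoter peak (vertical axis, within each list) for the 9 bound genes in CHP-134 with DMSO (blue), CHP-134 with compound (orange) and IMR-32 (green). Each symbol is a library, the black bar is the mean over libraries with a peak, and open symbols at 0 are libraries without one. MXD3 lies between 95.4 and 99.6 in all 8 libraries, and MXD4 and MGA have no peak in IMR-32.

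CACGTG lay within 100 bp of the strongest N-MYC promoter summit in at least 2 DMSO libraries for 6 of 9 genes (MAX, MXD1, MXD3, MXD4, MGA and MLX), against 26.9% of genes with an N-MYC promoter peak. For MGA the 2 libraries met different E-boxes of the upstream promoter, at 95.5 bp in replicate 2 and 6.5 bp in replicate 3. No E-box of that promoter was within 100 bp of its summit in more than 1 DMSO library. CACGTG was near the summit in 1 of 3 libraries for MNT and in none for MYCL and MXI1. Of the 15 sites listed in at least 2 DMSO libraries, 9 held the motif. Sites were searched from 100 bp before the first to 100 bp after the last summit of any list. This is a wider stretch, with summits spanning 708 bp at the upstream MGA promoter. At 50 bp from the strongest promoter summit the count was 3 of 9 genes. No share over all sites, or over all genes at 50 bp, was computed, so these counts are descriptions.

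The distance from summit to E-box varied among genes and libraries. At MXD3 the DMSO summits were 4.5, 1.5 and 6.5 bp from the middle of the E-box, the compound summits 15.5, 15.5 and 6.5 bp and the IMR-32 summits 4.5 and 3.5 bp. At the intron site of MNT the DMSO distances were 3.5, 4.5 and 2.5 bp, and the compound distances 3.5, 40.5 and 9.5 bp. All DMSO summits of both sites thus lay within 6.5 bp of the middle of the E-box. At MAX the DMSO summits were 0.5, 66.5 and 152.5 bp away, and at MXD1 75.5, 35.5 and 32.5 bp, in every library on the side of the TSS. MXD4 had 97.5, 14.5 and 5.5 bp, and MLX 122.5, 31.5 and 86.5 bp.

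Summits lay near the TSS at some genes and well away from it at others. The mean distance in the DMSO libraries was 30.0 bp for MLX, 83.5 bp for MYCL, 95.7 bp for MAX, 261 bp for MXD4, 282 bp for MNT, 312 bp for MGA, 382 bp for MXD3, 706 bp for MXD1 and 827 bp for MXI1. The median over all 7924 genes with an N-MYC promoter peak was 135 bp, with MLX, MYCL and MAX nearer than that. Over the 9 genes it was 282 bp, the value of MNT, which averages peaks at 2 promoters. GC content in the 501 bp around the summit was 56.1% for MXI1 to 76.2% for MNT, inside the 52.9% to 76.4% spanned by the central 90% of those genes.

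**Figure D2:**
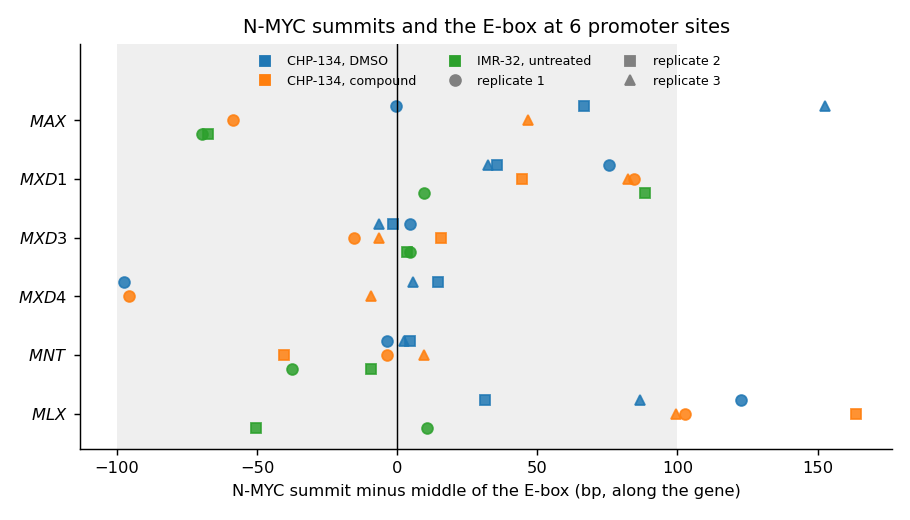
Position of N-MYC summits relative to the middle of the E-box (horizontal axis, in bp along the direction of the gene) at 6 promoter sites that hold 1 E-box each. Each symbol is a library, and the grey band marks 100 bp on each side. The summits of MXD3 lie within 15.5 bp of the E-box in all 8 libraries, while those of MAX and MLX reach 152.5 and 163.5 bp.

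In CHP-134 cells with DMSO, MGA was the only one of the 10 genes with a WDR5 promoter peak in at least 2 libraries, a share close to the 8.72% of all genes. It was thus the only one of the 10 among the 1603 genes with both proteins by that rule. Its strongest WDR5 peak was at percentiles of 91.1, 73.2 and 28.0 (64.1 ± 32.5, SD, n = 3), above 61.2% of the 1757 genes with WDR5. In single libraries, WDR5 was also listed at MXD1 (DMSO replicate 3, 63.4) and at MLX (DMSO replicate 1, 26.2). The call for MGA rests on the upstream promoter, listed in all 3 libraries. With basic transcripts only, 0 of 10 genes were called.

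Within CHP-134 with DMSO, the WDR5 percentile was below every N-MYC percentile, with unlisted peaks counted as 0, for 7 of 9 genes, against 49.9% of all genes by that rule. For 5 of the 7, MAX, MXD3, MXD4, MXI1 and MNT, this only restates that no WDR5 peak was listed, and MLX had WDR5 in 1 library. All of the 9 but MGA had entered the comparison through N-MYC alone, so the count is a description. At MGA, where both were listed in all 3, the WDR5 mean minus the N-MYC mean was −29.4 percentile points for the strongest peaks, taken over 2 promoters (exact permutation p = 0.1, two-sided, the smallest 3 against 3 libraries allow). The highest WDR5 value was 91.1 and the lowest N-MYC value 91.2, and the call was lost at each promoter. At the upstream promoter WDR5 was at 85.5, 73.2 and 28.0 and overlapped N-MYC at 72.4, 92.6 and 91.2 (exact permutation p = 0.3), and at the inner promoter p was also 0.3. The WDR5 lists were the shorter ones, and the part of list length in these differences was not tested.

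At the upstream MGA promoter, WDR5 and N-MYC summits moved together between libraries. N-MYC summits lay 382, 44 and 538 bp downstream of the nearest TSS in DMSO replicates 1 to 3, and WDR5 summits were at 121, −170 and 301 bp in the same-numbered libraries. Within each pair the N-MYC summit was downstream of the WDR5 summit, by 261, 214 and 237 bp (237 ± 23.5 bp, SD, n = 3), although the summits themselves ranged over 494 bp for N-MYC and 471 bp for WDR5. Over the 1603 genes with both proteins, the median distance between mean summits of the strongest promoter peaks was 134 bp. On that measure MGA had 188 bp, averaged over 2 promoters, so the 237 bp at 1 promoter is not a like value. In compound replicate 1, the only compound library with WDR5 there, the 2 summits were 1 bp apart.

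**Figure D3:**
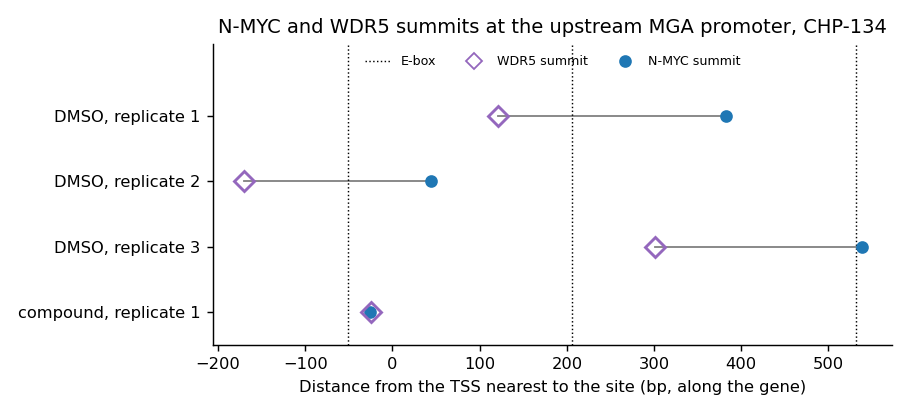
Summits of N-MYC (filled circles) and WDR5 (open diamonds) at the upstream MGA promoter, as distance in bp from the TSS nearest to the site, for each replicate number of CHP-134 with both peaks. Dotted lines mark the 3 E-boxes. The DMSO libraries have N-MYC 214 to 261 bp downstream of WDR5, and in compound replicate 1 they coincide.

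The compound and DMSO were compared in CHP-134. For N-MYC, 0 of 9 genes were lower and 0 of 9 higher in all 3 compound libraries than in all 3 DMSO libraries, against 7.31% and 0% of the 8179 genes tested. Exact permutation p-values (two-sided, smallest possible 0.1) ran from 0.2 for MXD3 to 1 for MYCL, and limma over the 2239 genes listed in all 6 libraries called 0 genes, with 13 at an unadjusted p under 0.05. With the replicate number as a block, chosen after seeing the data, limma called 2 genes lower and 0 higher, with 150 at an unadjusted p under 0.05, and none of the 5 members listed in all 6 libraries, whose adjusted p was 0.772 or more. Without compound replicate 1, MNT and MGA were lower, against 16.3% of genes tested. Without compound replicate 3, MXD3 and MXD4 were lower, against 23.6%. Without compound replicate 2, the short list, 0 of 9 were lower, against 7.83%. Without DMSO replicate 2, MAX was lower, against 21.6%, and without DMSO replicate 3, MXD3 was, against 16.9%.

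Since same-numbered libraries deviated together, the comparison was also made within numbers. N-MYC was then lower with the compound in every pair for 4 of 9 genes, MAX, MXD4, MGA and MLX, against 27.4% of genes, and higher in every pair for 0 of 9, against 0.403%. With 3 pairs an exact p cannot go below 0.25. For MAX the compound percentiles were 76.9 in replicate 1 and 79.2 in replicate 3, with no peak in replicate 2, a mean pair difference of −25.0 points (SD 22.8, n = 3). MXD4 had 49.0, no peak and 68.4, and MLX had 76.6, 0.742 and 61.4. For these 3 genes the widest gap came from replicate 2, and the part of the short list in it was not tested. MGA had 96.5, 62.7 and 64.5, so that replicate 1 was level with its DMSO library and the other two were lower. By site the call for MGA was lost, since each promoter was lower in 2 of 3 pairs. The upstream promoter was at 88.4, 62.7 and 64.5 with the compound, above its DMSO value in replicate 1. The inner promoter was at 96.5, 19.7 and 59.9, above its DMSO value in replicate 3. The intron site, listed in all 3 DMSO libraries, was listed in compound replicate 3 alone, at 22.2.

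The remaining genes did not move in a shared direction across pairs. MXD3 stayed high, at 97.1, 96.9 and 97.9 with the compound, and the difference from DMSO was −1.05 points (SD of the pairs 1.23, n = 3). MXD1 kept its order of replicates, at 65.7, 94.7 and 99.8, a difference of 0.347 points (SD of the pairs 2.10, n = 3), so the spread between replicates of MXD1 recurred in both treatments. MNT had 96.6, 79.7 and 84.9, a difference of −6.82 points that became −24.4 with TSSs of basic transcripts only. With the compound, MXI1 had 34.9, no peak and 56.3, and MYCL was listed only in replicate 3, at 48.4.

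At the level of single sites, treatments did not overlap at 1 of the 15 sites tested, the inner MNT site just upstream of its TSS. Over all 11841 sites 6.26% were lower with the compound by this rule and 0.0338% higher. The count is close to that share, so the site is described only. Its N-MYC percentiles were 92.2, 91.1 and 94.2 with DMSO and 71.4, 55.7 and 84.4 with the compound, a difference of −22.0 points (exact permutation p = 0.1, two-sided). It held no CACGTG, and its summits stayed within 57 to 97 bp upstream of the TSS in all 6 libraries. The other MNT site with peaks in all 6 libraries, on the E-box in the intron, was at 96.6, 79.7 and 84.9 with the compound and overlapped DMSO. The part of the E-box in this was not tested.

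**Figure D4:**
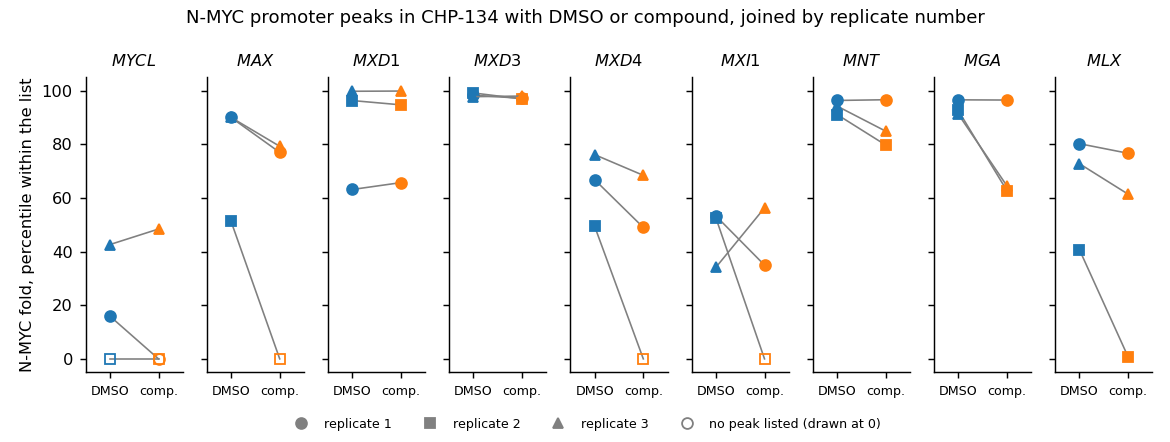
Percentile of the N-MYC fold at the strongest promoter peak (vertical axis) with DMSO and with compound (comp.) in CHP-134, 1 panel per gene. Lines join libraries of the same replicate number, and open symbols at 0 mark libraries with no peak. MAX, MXD4 and MLX slope down in every pair. MGA slopes down in replicates 2 and 3 and is level in replicate 1, and MXD1 and MXD3 are nearly level.

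WDR5 with the compound could be followed only at MGA, since it alone was listed in 2 libraries of either group. It was at 91.8 in compound replicate 1, and replicates 2 and 3, whose lists held 15 and 401 peaks, had none. The groups overlapped (difference −33.5 points, exact permutation p = 0.4), and 0 of 1 gene was lower, against 29.2% of 1817 genes. Without compound replicate 1, it was lower, against 41.5% of 1757 genes. MXD1 had WDR5 in compound replicate 3 at 83.8 and MLX in compound replicate 1 at 40.6, the same replicate numbers in which they had it with DMSO.

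In IMR-32 cells, N-MYC was found at 6 of the 10 promoters in both libraries, those of MAX, MXD1, MXD3, MXI1, MNT and MLX, against 16.2% of all genes. MXD3 was again near the top at 99.6 and 95.4, with MXD1 at 98.0 and 91.8 and MNT at 88.3 and 97.5. MLX was at 69.9 and 52.7. MAX was at 80.1 and 12.4, far lower in replicate 2, the shorter list. MXI1 was at 82.2 and 25.1, but these were peaks at different promoters. No MXI1 site, as joined by summits, was listed in both libraries, although a further, weaker peak of replicate 1 overlapped the replicate 2 peak. No WDR5 promoter peak was listed for any of the 10 genes in either IMR-32 library. Counted in both libraries, WDR5 was at 0 of the 10 genes, close to the 4.99% of all genes by that rule.

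Compared with CHP-134 DMSO, N-MYC was lower in IMR-32 for 2 of 9 genes, MXD4 and MGA, and higher for 0 of 9, against 32.8% and 4.02% of 8069 genes. Both were unlisted in IMR-32 and listed in all 3 CHP-134 libraries, so the call restates that no peak was listed there, and it carries no test. At MGA neither promoter nor the intron site was listed. MYCL was unlisted in IMR-32 too, but also in a CHP-134 library. WDR5 at MGA was likewise listed in all 3 CHP-134 DMSO libraries and in no IMR-32 library, 1 of 1 gene against 18.4% of 2041 lower. Among genes listed in every library no member was called lower, since MXD4 and MGA then drop out. Leaving out IMR-32 replicate 1 gave 5 genes lower (MAX, MXD3, MXD4, MXI1 and MGA) and 1 higher (MNT), against 48.9% and 7.40% of all genes. Leaving out CHP-134 DMSO replicate 2 gave 5 lower (MYCL, MAX, MXD4, MGA and MLX), against 60.1%. Without IMR-32 replicate 2, MXD4, MNT and MGA were lower and MXD3 and MXI1 higher, against 35.0% and 16.4%.

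Some N-MYC sites were listed in IMR-32 and in no DMSO library of CHP-134. MAX had one in an intron, 31072 bp downstream of the nearest TSS on average, at 54.0 and 40.4, with no CACGTG and no peak in CHP-134. MXI1 had an inner site in replicate 1, at 21.6, and another in replicate 2, at 25.1, the value given above. Their summits were too far apart to be joined, but the replicate 2 peak also covered the replicate 1 summit. These 2 peaks thus overlapped. The outer MNT site 656 bp upstream of the TSS was at 88.3 and 72.4 in IMR-32 and 83.2 in compound replicate 1. It had no summit in a DMSO list, but a broad peak with its summit elsewhere covered the position in all 3. Of the 17 sites of the 9 genes tested, some did not overlap CHP-134 DMSO. Lower in IMR-32 were the MXD4 site, all 3 MGA sites, the MYCL intron site and the inner MNT site just upstream of its TSS. Higher were the MAX intron site and the outer MNT site above. Apart from the inner MNT site, these calls restate that 1 group had no peak listed. That site was at 74.9 in IMR-32 replicate 2 and unlisted in replicate 1, beside 91.1 or more with DMSO. By the same rule, 29.1% of all 11671 sites were lower and 7.31% higher in IMR-32.

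The other bHLHZip genes of the network were read in the same way. MLXIP, one of the Mondo genes whose proteins dimerise with MLX, had N-MYC at 94.6, 91.9 and 77.9 with DMSO and 83.3 and 62.3 in IMR-32, and its DMSO summits lay 42.5, 13.5 and 4.5 bp from an E-box. MLXIPL, the other Mondo gene, had no N-MYC peak and 1 WDR5 peak, in DMSO replicate 2. MYCN itself had no N-MYC peak in CHP-134, and in IMR-32 its promoter was at 20.6 and 18.2, with folds of 4.22 and 4.55 and −log10 q-values of 136 and 94.0. WDR5 at the MYCN promoter was listed in DMSO replicates 1 and 3 at folds of 1.40 and 1.38 and in IMR-32 at folds of 3.11 and 3.12. MYCN is the amplified gene of these lines, and the part of its copy number in these ranks was not tested.

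The partners of the network proteins were read from 4 lists. Genes of corepressors used by MXD proteins had N-MYC at 4 of 7 promoters and WDR5 at 2, those of the MGA-containing PRC1.6 complex at 7 of 10 and 4, MYC cofactor and turnover genes at 11 of 12 and 1, and other E-box-binding bHLHZip genes at 3 of 6 and 1. The shares of all genes were the 39.3% and 8.72% given above. The strongest WDR5 peaks among them were at SIN3A (mean percentile 93.1), the scaffold of the MXD corepressor, and E2F6 (92.6), the DNA-binding partner in PRC1.6. KAT5, a MYC-recruited acetyltransferase, had a mean of 87.5, HDAC2, a deacetylase, 77.7, RNF2, a ubiquitin ligase of PRC1.6, 62.9 and WDR5 itself 38.9 over the libraries with a peak. SIN3A had WDR5 at 96.8, 91.5 and 90.9 and N-MYC at 43.6, 55.1 and 39.4 in the DMSO libraries. These WDR5 summits lay more than 1 kb upstream of the nearest TSS, so the peaks met the promoter rule by overlap alone. The N-MYC summits lay 531, 978 and 422 bp downstream of the TSS nearest to each. The distance between WDR5 and N-MYC at SIN3A, and TSSs of other genes near the WDR5 summits, were not tested. N-MYC was lower with the compound, without overlap, at RNF2 and RYBP of the 7 PRC1.6 genes tested and at KAT5 and SKP2 of 11 cofactor genes, and at none of 4 corepressor and 3 E-box factor genes, against 7.31% of all genes. At KAT5 the values were 98.2, 98.2 and 98.4 with DMSO and 97.6, 97.9 and 97.0 with the compound, under 1 point apart on average. RNF2 had N-MYC at 93.4, 94.0 and 94.1 with DMSO and 81.1, 81.3 and 78.4 with the compound. RYBP and SKP2 were named after their values were seen. With the compound, RYBP was listed in replicate 1 alone, at 31.3, and SKP2 in replicate 3 alone, at 1.92. Their lowest DMSO values were 41.6 and 6.41, so both calls largely restate unlisted peaks.

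The genes whose promoter percentiles over the 16 libraries were most like those of MGA were ROBO2, with a mean absolute difference of 6.76 points, and TRIM71, with 7.40 points, unlisted peaks counting as 0. No other gene of the 10 had both proteins in at least 2 DMSO libraries, so no such comparison was made for them.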

How the data were processed

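N-MYC and WDR5 ChIP-seq of CHP-134 and IMR-32 cells gave 16 peak lists, and 6 IgG samples were not analysed here. Reads had been trimmed (Cutadapt) and mapped to hg19 (Bowtie2) by the authors, who ran MACS2 library by library with a q-value cutoff of 0.05. The control library and versions are not given in the sources used here. Per the narrowPeak layout, the deposited fold is a ratio to local background, the deposited significance columns are −log10 of the p-value and of the q-value, and the deposited score, a whole number made from the q-value, was not used. Folds were ranked within each list only. The members and gene lists were chosen with earlier results of these data known.

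TSSs of all protein-coding transcripts came from GENCODE 44 mapped to GRCh37. A promoter peak overlapped the 1000 bp on either side of a TSS by at least 1 bp, and the peak of highest percentile stood for the gene. Groups of libraries were called different when their percentiles did not overlap, unlisted peaks counting as 0, with an exact permutation test on the means, two-sided. Genes listed in at least 2 libraries of either group were tested. Replicate numbers pair the samples: deviations from group means correlated at 0.54 to 0.59 for same-numbered DMSO and compound N-MYC libraries (2239 genes). For N-MYC and WDR5 they correlated at 0.26 to 0.28 (676 genes). Differently numbered libraries correlated negatively, which centring on the group mean then forces on balance, so they add no further support. The pairing comes from the labels' numbers and this check. Limma 3.58.1 (R 4.3.3) was run on normal scores, with Python 3.11.15, pandas 2.3.3 and scipy 1.17.1 elsewhere. Calls, limma and the motif search were tested on simulated data.

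Named genes were all members, MYCN, MLXIP and MLXIPL, the 6 list genes with the highest mean WDR5 percentile among those with WDR5 in at least 2 DMSO libraries, and the 2 genes most like a member with both proteins. Alternatives were the TSS window, transcripts, q-value, summit rule, rank column, genes listed in every library, replicate block, limma (with the block added after seeing the data), the E-box window and motif, and leaving out each library.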

Additional observations from a re-analysis of the deposited data

How the results depend on the processing

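Counts of members with an N-MYC peak, and of members higher under the compound, kept within 1.5 times of the reported count under every alternative tried, including windows of 500 bp and 2 kb, a stricter q-value and ranks by q-value. With TSSs of basic transcripts, 0 members had WDR5 in CHP-134 and 0 were lower for WDR5 in IMR-32, since the upstream MGA promoter is then left out. The median summit distance was then 382 instead of 282 bp, as the inner MNT promoter is left out too and MNT moves from 282 to 1330 bp. Restricted to genes listed in every library, or ranked among them, 0 members were lower in IMR-32 for N-MYC, 0 for WDR5, and 1 was lower for WDR5 against N-MYC, because unlisted members drop out. Limma on normal scores also gave 0 members lower in IMR-32, with 0 genes at an adjusted p under 0.05 and 387 of 2824 at an unadjusted p under 0.05. With the replicate number as a block, chosen after seeing the data, limma gave 0 members lower and 0 higher under the compound. The replicate block on signs gave 4 members lower under the compound in place of 0 and 8 lower for WDR5 against N-MYC in place of 7, and changed no other call. E-boxes within 50 bp were found for 3 members in place of 6, with no share over all genes computed at 50 bp.

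Leaving out 1 library at a time moved the members lower under the compound between 0 and 2 for N-MYC and 0 and 1 for WDR5, those lower in IMR-32 between 2 and 5, those higher in IMR-32 between 0 and 2, those with an E-box between 3 and 6, and the median summit distance between 258.25 and 381.5 bp. The shares of all genes lower under the compound then ran from 7.83% to 23.6% for N-MYC and from 29.2% to 61.4% for WDR5. In IMR-32 the N-MYC shares ran from 35.0% to 60.1% lower and from 5.05% to 16.4% higher. The distance between mean N-MYC and WDR5 summits of the strongest MGA peaks was 188 bp over all libraries and 6212.5 to 13224.5 bp without one, because it averaged over 2 promoters. Measured at the upstream promoter alone, an alternative chosen after seeing the data, it was 237 bp. Of the mean percentiles and differences of single members under all alternatives, 394 moved by no more than the spread between replicates and 22 by more. The called differences among them were those of MXD4 and MGA in IMR-32. Both were unlisted there and counted as 0, so their unchanged sign is no check. Depth is unknown, so how far it limits the short lists was not tested.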
